A study of Mus musculus with 14 samples.

Results

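The genes described here are 46 genes of DNA replication and S phase, listed by symbol and grouped by their known roles. They were followed in murine repeatedly activated Th1 (Th1 rep) cells in which miR-31 was blocked. Of the 46 genes, 45 had a probe set that carries their symbol alone, among 18193 such genes on the array, and 44 were among the 10916 brightest genes that were tested. Chaf1a, a subunit of the histone chaperone CAF-1, is not named in the probe annotation used here. Tyms, which makes dTMP, had a mean log2 intensity of 4.65 in its brightest probe set, below the lowest mean kept, 4.79. The dimmest gene kept was Gins3, with a mean log2 intensity of 6.53, so no member lay close to the limit from above. Each gene stands for its probe set with the highest mean log2 intensity over all arrays.

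Chromosomes are copied once in each S phase. In G1 the origin recognition complex, Cdc6 and Cdt1 load the ring-shaped MCM helicase onto origins. Cyclin E with Cdk2 and the E2F transcription factors drive the entry into S phase, and Cdc45 and the GINS complex turn the loaded ring into a running helicase. Primase and the replicative polymerases then copy the strands, held by the PCNA clamp, which the RFC complex loads. T cells restimulated through their receptor divide fast, and these genes are among the transcripts that rise as they enter the cycle.

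Th1 rep cells were derived from naive CD4+CD62Lhi cells of OT-II mice, 6 to 10 weeks old, whose T cells carry a transgenic receptor for an ovalbumin peptide. The cells were kept under IL-12 and antibody to IL-4 and stimulated 4 times. For 1.5 h in medium without serum they were then given 1 µM of Antagomir-31, an oligonucleotide that pairs with miR-31 and blocks it, or of its control, Antagomir-SCR, and were restimulated with antibodies to CD3 and CD28 at 3 µg/ml. For each antagomir there were 2 arrays from 36 h, 2 from 48 h and 3 from 72 h, 14 in all. All groups share the genotype, the history of stimulation and the restimulation, and no array holds cells without an antagomir. The labels do not say that arrays of a group came from separate cultures, so p-values measure the spread between these arrays, which may be technical. The arrays do not measure mature miR-31, so the block itself was not checked here.

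The arrays at 72 h stood apart from those at 36 and 48 h in genes that mark the sex of the donors. Xist, the RNA that silences an X chromosome in female cells, had intensities of 13.3 to 24.2 on the 8 arrays at 36 and 48 h and of 2430 to 3210 on the 6 arrays at 72 h. Eif2s3y on the Y chromosome had 758 to 881 on the former and 5.17 to 5.81 on the latter, and Kdm5d and Uty, also on the Y chromosome, showed the same split. Mean intensities ranged from 232 to 235 (36 h), from 223 to 224 (48 h) and from 266 to 267 (72 h), and RMA over all arrays together would have given them near-equal levels. The labels do not say whether each time was normalized by itself, and the levels at 36 and 48 h differed too, by less. Harvest time, donors and normalization therefore cannot be told apart in any comparison with 72 h, nor can harvest time and normalization between 36 and 48 h on the deposited values. The contrasts of the antagomirs lie within a time, and those of 48 h with 36 h lie within arrays of one sex pattern. Of the markers of the labelled cell type, Cd3d was at 4983 to 5700, Tbx21 at 944 to 1885 and Ifng at 8188 to 17170. Others of that list were lower, with Cd4 at 146.8 to 321.7, Il12rb2 at 142.7 to 308.2 and Cxcr3 at 44.4 to 64.9. Markers of other cells ran from 6.52 (Foxp3) to 108 (Ighm), apart from Klrd1 of NK cells at 1121 to 2030 and Il2ra, which the lists of T and Treg cells share. No gene of the marker lists for T cells or for other cells passed the test between the antagomirs at any time. In RNA from a whole culture, fewer cells in S phase and less of a transcript per cell cannot be told apart.

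The sequence that Antagomir-31 is directed against is shown first, because the seed decides which transcripts miR-31 can reach. Mature mmu-miR-31-5p has 22 bases and lies at chr4:88910614-88910635 on the minus strand of GRCm38.p6. The sequence is from RefSeq, and the capitals mark the seed, bases 2 to 8.
mmu-miR-31-5p: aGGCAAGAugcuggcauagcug

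Many S phase genes carry E2F sites close to their start. Promoters of 300 bases, from 250 before to 50 after the start site (RefSeq, GRCm38.p6), were held for 38 of the 46 genes and for 27025 genes in all. They were searched on both strands for the 4 words TTTCCCGC, TTTGGCGC, TTTCGCGC and TTTGCCGC, which make up the common form of the E2F site. At least 1 of the words was found in 17 of the 38 genes (44.7%) and in 704 of all genes (2.6%). TTTCCCGC was held by 9 of the 38 and 1.24% of all genes, TTTGGCGC by 6 and 0.585%, TTTCGCGC by 7 and 0.374%, and TTTGCCGC by 0 and 0.507%. Words on opposite strands can overlap, and a match is a match of letters only. The promoters of 2 MCM subunits, of the clamp loader subunit Rfc3 and of Uhrf1 hold such words and belong to genes that rose at 72 h, and that of Pold1 holds a word too but its gene fell. The promoters of Rfc4 and Cdc45, which fell, and of Rfc5, which rose, hold none. From 48 to 72 h with Antagomir-SCR, 16 of the 17 tested genes with a word were above 0, as were 14 of the 19 without. Pold1 was the exception among the 17. The second probe sets of Pold1 and Cdc45 were at 0.049 and 0.031, and that of Rfc4 at -0.577. All 8 were chosen after their values were seen, and for Mcm7 and Uhrf1, which have several start sites, the promoter with the words is given. Capitals mark the words on either strand, and each sequence reads in the direction of its gene.
Mcm6, chr1:128359656-128359955, minus strand: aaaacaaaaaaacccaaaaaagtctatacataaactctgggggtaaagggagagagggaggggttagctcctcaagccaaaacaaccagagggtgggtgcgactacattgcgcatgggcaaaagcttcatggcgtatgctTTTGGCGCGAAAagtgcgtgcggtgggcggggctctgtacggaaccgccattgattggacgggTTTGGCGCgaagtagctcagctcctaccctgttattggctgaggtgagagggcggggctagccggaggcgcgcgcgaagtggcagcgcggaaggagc
Mcm7, chr5:138171834-138172133, minus strand: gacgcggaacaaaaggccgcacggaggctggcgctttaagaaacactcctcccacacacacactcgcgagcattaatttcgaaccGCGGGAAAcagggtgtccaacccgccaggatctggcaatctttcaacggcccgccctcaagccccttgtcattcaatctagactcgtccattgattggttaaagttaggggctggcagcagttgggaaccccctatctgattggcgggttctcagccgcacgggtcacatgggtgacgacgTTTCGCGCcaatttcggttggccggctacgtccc
Rfc3, chr5:151651159-151651458, minus strand: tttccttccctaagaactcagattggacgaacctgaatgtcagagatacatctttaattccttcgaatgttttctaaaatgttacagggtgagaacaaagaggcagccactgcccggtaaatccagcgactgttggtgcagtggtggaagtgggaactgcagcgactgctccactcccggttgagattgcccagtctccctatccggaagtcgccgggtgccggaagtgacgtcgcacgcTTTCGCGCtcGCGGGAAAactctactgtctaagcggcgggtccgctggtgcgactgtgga
Uhrf1, chr17:56304063-56304362, plus strand: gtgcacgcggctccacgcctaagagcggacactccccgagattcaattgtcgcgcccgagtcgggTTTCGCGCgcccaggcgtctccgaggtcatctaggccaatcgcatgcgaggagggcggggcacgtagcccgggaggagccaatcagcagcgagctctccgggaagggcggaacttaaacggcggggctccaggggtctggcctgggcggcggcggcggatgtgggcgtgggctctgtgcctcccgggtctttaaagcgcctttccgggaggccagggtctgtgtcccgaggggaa
Pold1, chr7:44548766-44549065, minus strand: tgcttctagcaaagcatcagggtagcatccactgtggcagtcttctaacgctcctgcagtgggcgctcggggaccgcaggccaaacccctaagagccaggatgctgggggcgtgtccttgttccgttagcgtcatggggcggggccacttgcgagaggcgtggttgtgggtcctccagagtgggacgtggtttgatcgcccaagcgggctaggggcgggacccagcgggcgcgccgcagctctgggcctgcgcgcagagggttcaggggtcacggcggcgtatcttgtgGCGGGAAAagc
Rfc4, chr16:23127681-23127980, minus strand: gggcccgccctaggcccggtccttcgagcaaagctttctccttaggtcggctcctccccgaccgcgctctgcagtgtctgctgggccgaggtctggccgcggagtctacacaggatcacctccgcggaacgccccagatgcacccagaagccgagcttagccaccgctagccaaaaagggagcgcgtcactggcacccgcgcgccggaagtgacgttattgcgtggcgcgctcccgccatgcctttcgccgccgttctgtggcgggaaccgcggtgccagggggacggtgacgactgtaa
Cdc45, chr16:18811923-18812222, minus strand: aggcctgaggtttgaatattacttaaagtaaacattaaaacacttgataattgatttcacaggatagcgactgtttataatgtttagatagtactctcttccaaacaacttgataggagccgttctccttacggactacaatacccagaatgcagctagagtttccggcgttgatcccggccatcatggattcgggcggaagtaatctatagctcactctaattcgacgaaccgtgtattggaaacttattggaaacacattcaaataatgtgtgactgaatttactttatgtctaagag
Rfc5, chr5:117388974-117389273, minus strand: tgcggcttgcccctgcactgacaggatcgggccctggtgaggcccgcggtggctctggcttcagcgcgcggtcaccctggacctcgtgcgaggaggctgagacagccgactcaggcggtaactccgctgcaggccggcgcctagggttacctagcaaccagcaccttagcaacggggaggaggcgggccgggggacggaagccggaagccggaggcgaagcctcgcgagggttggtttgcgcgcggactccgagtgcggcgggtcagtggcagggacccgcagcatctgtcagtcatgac

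The question of the design was which transcripts respond when miR-31 is blocked. With Antagomir-31, most of the replication genes read slightly lower than with Antagomir-SCR at each time, and Ccne2 at 72 h alone passed the test, as higher. The changes were small. The median log2 change was -0.037 (36 h), -0.065 (48 h) and -0.055 (72 h), while over all 10916 genes it was 0.00076, -0.0075 and -0.0089. The estimate lay below 0 for 35 of the 44 genes at 36 h (79.5%, against 49.4% of all genes), for 36 at 48 h (81.8% against 54.4%) and for 29 at 72 h (65.9% against 53.8%). The median standard error of a member's change was 0.061 at 36 and 48 h and 0.050 at 72 h, close to the median changes themselves.

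By limma with Benjamini-Hochberg adjustment over all genes, 0 of the 44 passed at 36 h, 0 at 48 h and 1, Ccne2, at 72 h. The share of all genes that passed was 0%, 0% and 1.1%, which at 72 h was 54 genes higher and 66 lower. At an unadjusted p under 0.05 there were 2, 5 and 8 of the 44, against 585, 654 and 1937 of all genes. The share of the 44 was close to that of all genes at 36 and 72 h, and above it at 48 h. All of these members but Ccne2 were lower with Antagomir-31. All arrays with Antagomir-31 read lower than all arrays with Antagomir-SCR for 13 genes (36 h), 20 (48 h) and 14 (72 h), where the share of all genes was 13.9%, 19.7% and 14.6%. The reverse held for 0, 1 and 2 genes, with 15.3%, 13.5% and 9.52% of all genes. Averaged over the 44 genes, the log2 intensity was 9.09 and 9.08 with Antagomir-31 against 9.12 and 9.13 at 36 h, and 9.01 and 9.02 against 9.07 and 9.08 at 48 h. At 72 h it was 9.56, 9.60 and 9.56 against 9.63, 9.60 and 9.62. The groups did not overlap at 36 and 48 h, and 1 array of each overlapped at 72 h. At 72 h the upper quartile of the arrays was also lower with Antagomir-31, which was highest at 133.2 with Antagomir-SCR and lowest at 129.1 with Antagomir-31, and its part in the counts at that time was not tested.

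**Figure D1:**
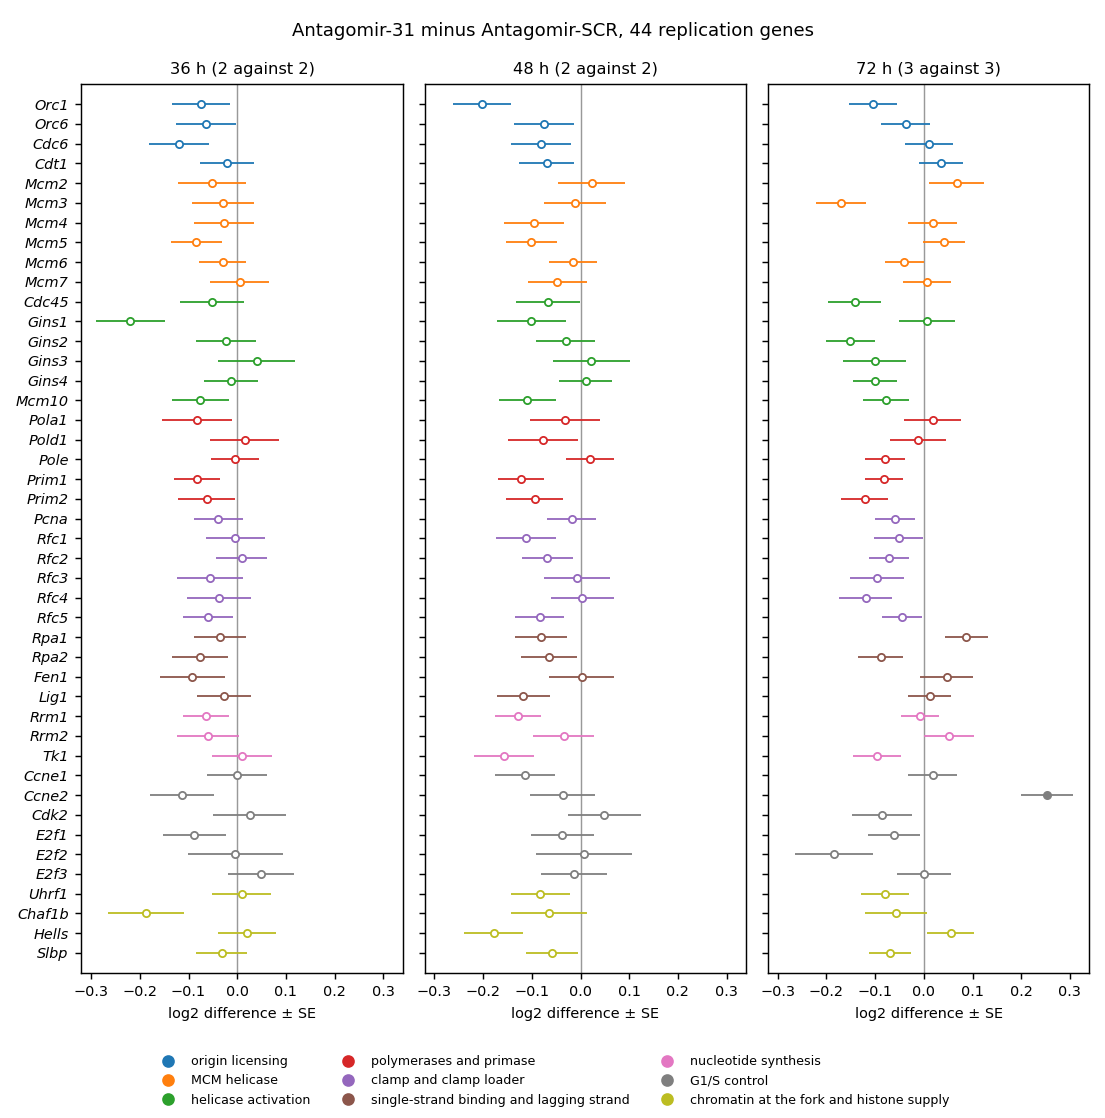
Log2 difference of Antagomir-31 minus Antagomir-SCR with its standard error from limma, for the 44 tested genes in order of their role (colours), at 36, 48 and 72 h. Open points did not pass an adjusted p of 0.05 and the filled point did; most points lie left of 0, and Ccne2 at 72 h is the filled one.

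**Figure D2:**
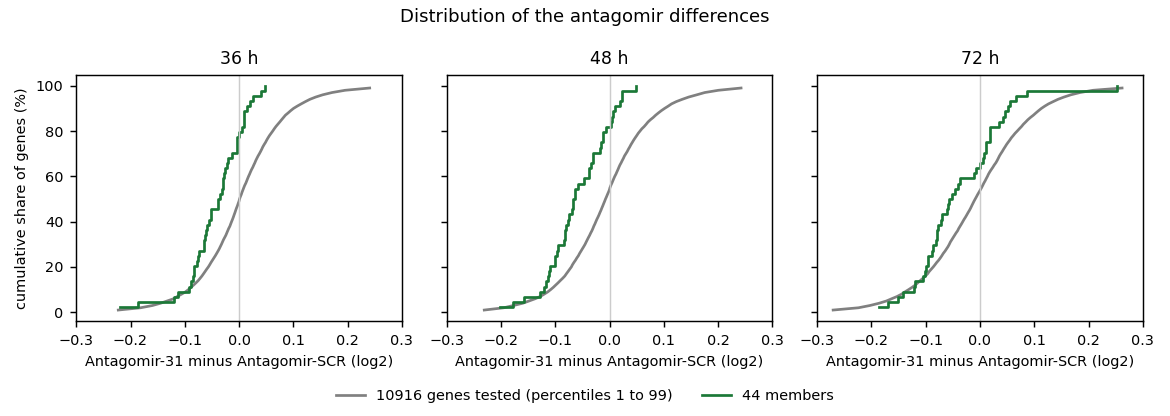
Cumulative share of genes (%) by their log2 difference of Antagomir-31 minus Antagomir-SCR, for the 44 genes (green) and for all 10916 genes (grey, percentiles 1 to 99). The green line lies left of the grey line near 0 at each time, and 79.5%, 81.8% and 65.9% of the 44 genes lie below 0.

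Averaged over the 3 times, 41 of the 44 genes lay below 0 (93.2%, against 54.4% of all genes), with a median of -0.049 against -0.0054. None passed the adjusted test on this average, as did 0.0183% of all genes, and 11 of the 44 and 1034 of all genes had an unadjusted p under 0.05. The 3 genes with an average above 0 were Ccne2 (0.034), Mcm2 (0.013) and E2f3 (0.012). The effects at different times did not differ for any of the 44 genes by the limma test of the difference, where 0% of all genes passed for 48 h against 36 h, 0.0183% for 72 h against 36 h and 0.0366% for 72 h against 48 h. At an unadjusted p under 0.05 there were 1, 2 and 3 of the 44, against 425, 1184 and 1104 of all genes.

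The licensing genes were lower with Antagomir-31 at the earlier times in estimate, without a call. All 4 lay below 0 at 36 h (median -0.069) and at 48 h (median -0.078), and 2 of 4 at 72 h (median -0.013). Orc1, the ATPase that anchors the origin recognition complex, gave the smallest p of this group. Its intensities at 48 h were 150.3 and 146.1 with Antagomir-31 against 173.1 and 167.9 with Antagomir-SCR, a log2 change of -0.20 ± 0.060 (SE, limma adjusted p = 0.635). At 72 h they were 266.7, 271.5 and 264.9 against 294.0, 288.6 and 280.8, and at 36 h 186.5 and 166.6 against 193.1 and 178.3. The groups were apart at 48 and 72 h and overlapped at 36 h. A second probe set of Orc1, with a mean log2 intensity of 6.18 against 7.71, was at -0.149 (36 h), -0.006 (48 h) and -0.071 (72 h). Cdc6, which loads the helicase together with Orc, was at -0.12 ± 0.061 (36 h), -0.081 (48 h) and 0.011 (72 h).

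In their brightest probe sets the 6 subunits of the MCM ring stayed close to the control, with medians of -0.029, -0.032 and 0.013. Mcm3 gave the second smallest p of all 44 genes at 72 h, where its intensities were 1341, 1392 and 1371 with Antagomir-31 against 1588, 1571 and 1461 with Antagomir-SCR. The groups did not overlap, and the log2 change was -0.17 ± 0.052 (adjusted p = 0.122). Earlier its intensities overlapped, with changes of -0.029 at 36 h and -0.012 at 48 h. The other subunits lay between -0.040 (Mcm6) and 0.067 (Mcm2) at 72 h. Their dimmer probe sets spread wider, from -0.171 (Mcm7) to 0.204 (Mcm4) at 72 h. Those probe sets ran from -0.254 (Mcm7) to 0.093 (Mcm5) at 36 h, and from -0.193 to 0.06 (both Mcm5) at 48 h. Mcm3 has 5 probe sets, of which 4 were lower at 72 h, by 0.063 to 0.25, and the dimmest was higher by 0.10.

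Among the genes that activate the helicase, 5 of 6 lay below 0 at 36 h, 4 at 48 h and 5 at 72 h, with medians of -0.038, -0.048 and -0.10. Gins1, a subunit of the GINS complex, had intensities of 125.0 and 145.3 with Antagomir-31 against 152.1 and 162.1 at 36 h, the smallest p of that time, with a log2 change of -0.22 ± 0.071 (adjusted p = 0.693). At 72 h the arrays overlapped, with 244.4, 246.3 and 261.3 against 259.3, 241.2 and 248.1. Cdc45 (-0.14 ± 0.054, adjusted p = 0.197) and Gins2 (-0.15 ± 0.050, adjusted p = 0.144) were lower on all 3 arrays at 72 h. Mcm10, a helicase partner, had 224.3 and 218.8 against 238.9 and 238.9 at 48 h and 357.5, 363.1 and 325.6 against 380.4, 366.0 and 356.5 at 72 h. Only the latter overlapped, and the changes were -0.076, -0.11 and -0.077 at the 3 times.

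Polymerases and primase showed 4 of 5 genes below 0 at each time, with medians of -0.063, -0.077 and -0.080. Prim1, the catalytic subunit of primase, had intensities of 1030 and 1041 with Antagomir-31 against 1075 and 1119 at 36 h, and of 968.6 and 974.7 against 1051 and 1063 at 48 h. At 72 h they were 1309, 1347 and 1349 against 1405, 1375 and 1459, so that no time showed an overlap. The log2 changes were -0.083 ± 0.047, -0.12 ± 0.047 and -0.082 ± 0.038, with adjusted p of 1.0, 0.752 and 0.294. Prim2, the regulatory subunit, was at -0.063, -0.094 and -0.12, also without overlap at each time. The next brightest probe sets of Prim1 and Prim2 were at -0.113 and -0.107 at 36 h and at -0.011 and -0.077 at 48 h. At 72 h they were at 0.024 and 0.193, opposite in sign to the brightest. The catalytic polymerase subunits Pola1, Pold1 and Pole ranged from -0.082 to 0.020 over the times.

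The clamp Pcna and the clamp loader were 5 of 6 below 0 at 36 and 48 h and 6 of 6 at 72 h, with medians of -0.039, -0.043 and -0.066. At 72 h their changes ran from -0.12 (Rfc4) to -0.045 (Rfc5), and Pcna was at -0.060. Rfc5 had 556.7 and 566.9 with Antagomir-31 against 580.1 and 591.1 at 36 h, and the arrays overlapped at 48 and 72 h. Of the genes for single strands and Okazaki fragments, 4, 3 and 1 of 4 lay below 0. Rpa2 was at -0.088 at 72 h, with 649.9, 679.3 and 661.4 against 715.3, 679.7 and 721.8, while Rpa1, its partner in the same complex, was at 0.087 ± 0.043 (adjusted p = 0.318) with 3500, 3497 and 3384 against 3311, 3296 and 3165. Those arrays did not overlap, in opposite directions for the chosen probe sets of the partners. The second probe sets of Rpa1 and Rpa2 were at 0.009 and -0.158 at 72 h, so the rise of Rpa1 rests on 1 probe set. For the chosen probe sets of the nucleotide enzymes the largest difference was at 48 h. There Rrm1 and Tk1 were at -0.13 ± 0.047 and -0.16 ± 0.061 (limma adjusted p = 0.732 and 0.752), and Rrm2 at -0.035. Rrm1, the large subunit of ribonucleotide reductase, had 1527 and 1542 against 1688 and 1666 at 48 h, without overlap. The second probe set of Rrm1, with a mean log2 intensity of 10.41 against 10.92, differed most at 72 h. It was at -0.099 (36 h), -0.226 (48 h) and -0.303 (72 h), where the chosen one was at -0.007 at 72 h.

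Ccne2 (cyclin E2), a partner of Cdk2, was the one member that passed the test. At 72 h its intensities were 801.8, 752.9 and 786.8 with Antagomir-31 and 677.9, 648.7 and 638.4 with Antagomir-SCR. The groups were well apart, and Ccne2 rose by 0.25 ± 0.054 on the log2 scale, or 1.19-fold (limma adjusted p = 0.0472). At 36 h the order was the reverse, with 745.4 and 735.7 against 775.8 and 827.1 (-0.11 ± 0.066, adjusted p = 1.0), and at 48 h the arrays overlapped, with 575.6 and 543.6 against 537.6 and 612.6. Set against 36 h, its effect at 72 h was larger by 0.37 ± 0.085 (adjusted p = 0.185). The call at 72 h was lost without any 1 of the 6 arrays of that time (adjusted p 0.0752 to 0.175), although the change stayed at 0.23 to 0.28. Ccne1, cyclin E1, had changes of -0.00068, -0.11 and 0.018 and none passed. The activators E2f1 and E2f2 were at -0.061 and -0.19 at 72 h, and E2f3 at -0.00025. E2f1 there had 180.9, 178.6 and 172.9 against 184.9, 184.2 and 186.1, without overlap, and E2f2 had 141.7, 166.2 and 160.7 against 156.7, 178.4 and 198.8, an overlap.

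In chromatin assembly and histone supply, 2 of 4 genes lay below 0 at 36 h, 4 at 48 h and 3 at 72 h. Chaf1b, a CAF-1 subunit, had 97.41 and 94.5 against 103.1 and 115.7 at 36 h, a change of -0.19 ± 0.078 (adjusted p = 0.907). Hells, a chromatin remodeller, had intensities of 971.9 and 972.6 with Antagomir-31 against 1121 and 1080 at 48 h, a change of -0.18 ± 0.060 (adjusted p = 0.715), and overlapped at the other times. The other probe sets of Hells, both dimmer, were at 0.009 and 0.12 at 48 h. Cdk2, E2f2 and Slbp, which protects histone mRNA ends, are in the list of putative miR-31 targets that the study drew up. Their changes were 0.025, -0.0038 and -0.032 at 36 h, 0.048, 0.0072 and -0.058 at 48 h, and -0.086, -0.19 and -0.069 at 72 h, and none passed the test.

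**Figure D3:**
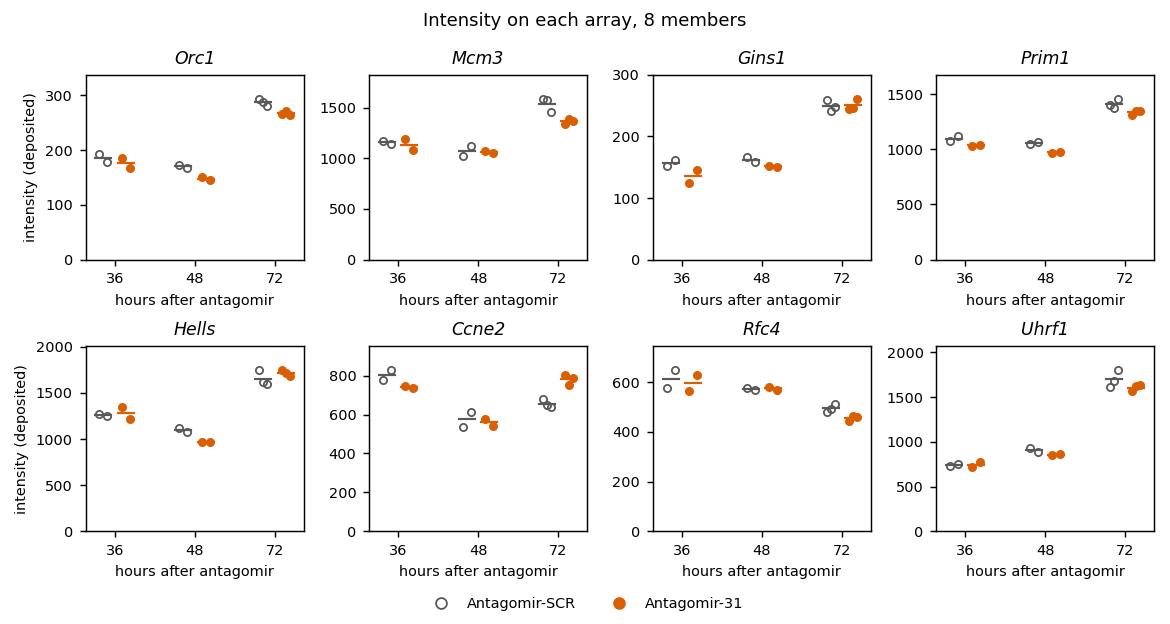
Deposited intensity on every array for 8 members, with Antagomir-SCR (open) and Antagomir-31 (filled) at 36, 48 and 72 h, and bars at the means. Ccne2 at 72 h is higher on all 3 Antagomir-31 arrays and Prim1 is lower at each time, whereas levels at 72 h cannot be told apart from the difference in donor sex genes and array level.

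Other genes of the cycle were followed in 4 lists that hold no member. Of all 10916 genes, 49.4%, 54.4% and 53.8% lay below 0 at 36, 48 and 72 h. By limma, 585, 654 and 1937 of all genes had an unadjusted p under 0.05. Of 54 further replication genes, 42, 45 and 33 lay below 0 at 36, 48 and 72 h, with medians of -0.043, -0.065 and -0.015. One passed: Rpa3, the small partner of Rpa1 and Rpa2, fell by 0.30 on the log2 scale at 72 h (adjusted p = 0.034). Ccna2 (cyclin A2) and Clspn (claspin) were at -0.16 and -0.18 at 48 h (adjusted p = 0.62 and 0.623). Of 29 genes of G2 and mitosis, 27, 29 and 20 lay below 0, with medians of -0.069, -0.092 and -0.029, and none passed, while 2, 9 and 8 had an unadjusted p under 0.05. The spindle checkpoint kinase Ttk was at -0.21 at 36 h and -0.17 at 48 h, and the kinetochore motor Cenpe at -0.27 at 48 h. Of 9 genes of G1 cyclins, their kinases and E2F partners, 6, 5 and 7 lay below 0, with Ccnd1 (cyclin D1) at -0.24 at 72 h (adjusted p = 0.192). Of 13 inhibitors of the cycle, 5, 5 and 7 lay below 0. Cdkn1b (p27) was at 0.13 at 48 h (adjusted p = 0.834) and at -0.22 at 72 h (adjusted p = 0.0634), and Cdkn1a (p21) at 0.13 at 48 h (adjusted p = 0.834).

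**Figure D4:**
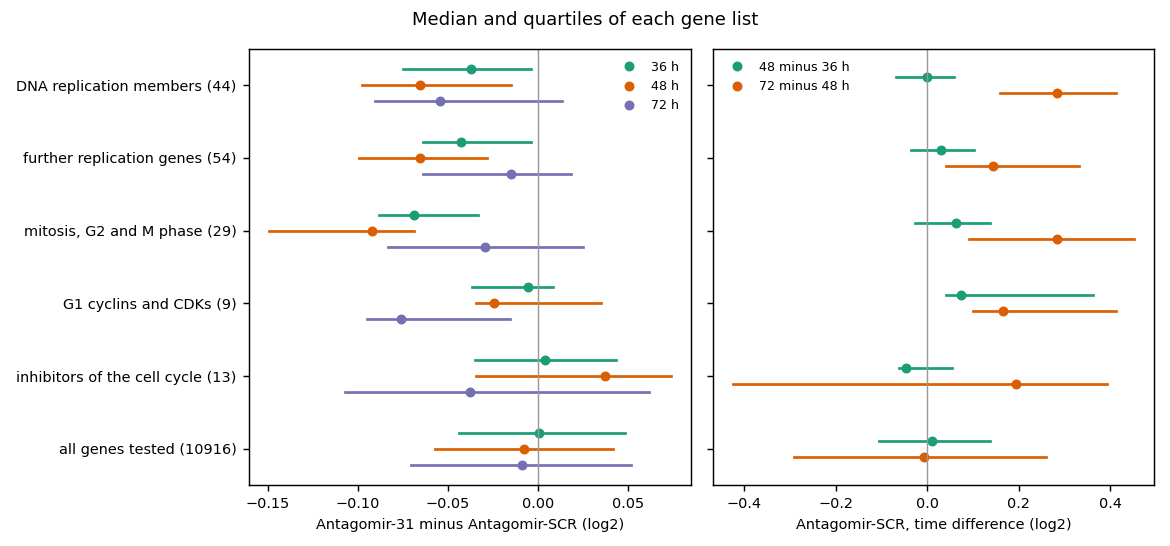
Median (point) and quartiles (line) of the log2 difference for the replication genes, 4 other lists and all genes tested, with the number of genes in brackets. At left, Antagomir-31 minus Antagomir-SCR at 3 times, where the replication and mitosis lists lie below 0 at 36 and 48 h; at right, time differences of the Antagomir-SCR arrays on quantile-normalized values, where the medians of all genes are near 0.

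The second comparison asked how these genes moved over time without the block, on quantile-normalized values of the Antagomir-SCR arrays. From 36 to 48 h, 5 of the 44 genes rose and 4 fell, which is 11.4% and 9.09%, where 15.5% and 11.4% of all genes rose and fell. The median was -0.00034, against 0.010 over all genes. The genes that rose were the clamp loader subunits Rfc1, Rfc2 and Rfc3, the thymidine kinase Tk1 and Uhrf1, which carries DNA methylation across the fork. Those that fell were the GINS subunit Gins2, Ccne2, Cdk2 and the clamp loader subunit Rfc5. Several of these calls, among them those of Rfc1, Rfc3 and Rfc5, were lost in alternatives, as given below. On the Antagomir-31 arrays 4 rose and 6 fell, where 14.3% and 12.3% of all genes did. The count of rises there was 1 without Antagomir-31 replicate 1 of 36 h and 2 without replicate 2 of 48 h. Markers also passed the test from 36 to 48 h with Antagomir-SCR: 2 of 3 tested B cell genes fell, as did 1 of 10 T cell and Th1, 1 of 3 macrophage and 1 of 2 Treg genes, and of 3 CD8 T and NK cell genes 1 rose and 1 fell. The summed intensity of the B cell list was 218.2 and 220.0 at 36 h and 185.9 and 190.8 at 48 h, that of the macrophage list up to 258.2, then 220.1 and 240.1 without overlap, and that of the CD8 T and NK cell list 1935 and 2051, then 2228 and 2295. The T cell list had 30770 and 30840, then 30540 and 31030, and the Treg list 1626 and 1650, then 1356 and 1563. Single genes were a large part of some of these sums, Klrd1 in the CD8 T and NK cell list and Il2ra in the Treg list. The part of the lists in the result at 48 h was not tested.

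Uhrf1 had quantile-normalized log2 intensities of 9.58 and 9.61 at 36 h and of 9.98 and 9.91 at 48 h, a rise of 0.35 ± 0.057 (adjusted p = 0.00104). Its second probe set rose by less, 0.098. Tk1 went from 8.62 and 8.68 to 9.002 and 8.895 (0.30 ± 0.061, adjusted p = 0.00367), and Rfc3 from 9.06 and 9.18 to 9.36 and 9.38 (0.25 ± 0.067, adjusted p = 0.0150), with 0.22 in its other probe set. Rfc1 rose by 0.35 ± 0.063 (adjusted p = 0.00174), but its other probe sets were at -0.045 and -0.48. Rfc2 rose by 0.26 ± 0.054 (adjusted p = 0.00427), against 0.14 and -0.081 in its other probe sets. The call of Rfc1 was lost when the brightest probe set was taken on each array (0.10, adjusted p = 0.232), and that of Rfc3 without Antagomir-SCR replicate 1 of 36 h or replicate 1 or 2 of 48 h (adjusted p 0.0593 to 0.118).

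Ccne2 fell from 9.67 and 9.75 at 36 h to 9.21 and 9.38 at 48 h, a change of -0.41 ± 0.063 (adjusted p = 0.000731), and has 1 probe set. It fell with Antagomir-31 too, by 0.34 on the log2 scale (adjusted p = 0.00208). Gins2 had the largest difference, from 9.31 and 9.35 to 8.72 and 8.70 (-0.62 ± 0.063, adjusted p = 4.45e-05). Its second probe set, with a mean log2 intensity of 8.22 against 8.89, was at 0.097, so the probe sets of Gins2 disagreed. Cdk2 fell by 0.22 on the log2 scale (adjusted p = 0.0491) and Rfc5 by 0.20 (adjusted p = 0.0163). The call of Cdk2 was lost with no filter, median centring, only the Antagomir-SCR arrays and the replicate block (limma adjusted p = 0.0604, 0.142, 0.0649 and 0.0548). It was also lost without any 1 of the 4 arrays, where the change was -0.25 to -0.18. The call of Rfc5 was lost with median centring (limma adjusted p = 0.0547). It was also lost without replicate 1 or 2 of 36 h or replicate 2 of 48 h, where the change was -0.21 to -0.15. The count of genes that fell was 2 in place of 4 without Antagomir-SCR replicate 1 or 2 of 36 h or replicate 2 of 48 h, and 2 when arrays were centred on their medians. With Antagomir-31, Hells fell by 0.32 on the log2 scale (adjusted p = 0.00294), Orc1 by 0.23 (adjusted p = 0.0154) and Mcm5 by 0.16 (adjusted p = 0.0449), which did not pass with Antagomir-SCR (-0.12, -0.084 and -0.14). The call of Hells held in all 12 alternatives run. That of Orc1 was lost with median centring and without Antagomir-31 replicate 1 of 36 h or replicate 2 of 48 h (adjusted p 0.0792 to 0.127). That of Mcm5 was lost with no filter, median centring, the replicate block (adjusted p = 0.0774) and without replicate 1 or 2 of 36 h or replicate 2 of 48 h, with an adjusted p of up to 0.282. The difference of the changes did not pass the test for any of them, with an adjusted p of 1.0 for each.

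From 48 to 72 h, where the genes of donor sex and the array levels also differ, 34 of the 44 genes rose and 4 fell, where 33.1% and 34.9% of all genes rose and fell. The median was 0.28, against -0.0063 over all genes. On the deposited values the median of all genes moved by 0.32 between these times and that of the replication genes by 0.59, so the difference from all genes was 0.26 there. On the Antagomir-31 arrays 34 rose and 3 fell, where 35.0% and 32.9% of all genes did. From 36 to 72 h, 33 rose and 5 fell with Antagomir-SCR (35.6% and 35.6% of all genes) and 31 and 4 with Antagomir-31 (35.5% and 34.3%). The actin ratio of 3-prime to 5-prime probe sets, a sign of RNA quality, on the log2 scale lay between 0.32 and 0.43 (36 h), 0.37 and 0.41 (48 h) and 0.21 and 0.27 (72 h), and its part in these changes was not tested. The summed intensity of the T cell and Th1 markers was 30540 to 31030 on the Antagomir-SCR arrays at 48 h and 22620 to 23210 at 72 h, where 4 of 10 genes rose and 2 fell. That of the CD8 T and NK cell markers was 2228 to 2295 and 1121 to 1178 (2 of 3 fell), that of the macrophage markers 220.1 to 240.1 and 201.0 to 203.9 (2 of 3 fell), and that of the dendritic cell markers 139.2 and 135.3 to 143.2 (2 of 2 fell). The Treg list had 1356 to 1563 and 2265 to 2339 (2 of 2 rose), and the B cell list 185.9 to 190.8 and 200.2 to 211.4 (2 of 3 rose). Single genes were a large part of some sums. On the deposited values of all arrays, Il2ra of the Treg list had 1191 to 2422 and Foxp3 6.52 to 15.8. Klrd1 of the CD8 T and NK cell list had 1121 to 2030, and Ifng of the T cell list 8188 to 17170. The sums therefore do not count cells, and the part of these lists in the result was not tested.

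From 48 to 72 h with Antagomir-SCR, 33.1% of all genes rose, and donor sex genes and array levels also differed. Genes of each role rose in that comparison. They were 3 of 4 licensing genes, 5 of 6 MCM subunits, 3 of 6 genes of helicase activation, 4 of 5 polymerase and primase genes, 5 of 6 clamp and clamp loader genes, 4 of 4 genes for single strands, 3 of 3 nucleotide enzymes, 3 of 6 genes of G1/S control and 4 of 4 chromatin genes. Rfc3 went from 9.36 and 9.38 at 48 h to 10.1, 10.1 and 10.2 (0.74 ± 0.062, adjusted p = 2.24e-07), Mcm7 from 11.05 and 11.04 to 11.72, 11.67 and 11.72 (0.66 ± 0.054, adjusted p = 1.89e-07), and Uhrf1 by 0.66 ± 0.052 (adjusted p = 1.55e-07). Mcm6 rose by 0.60 and Pola1, the primase-bound polymerase, by 0.58. These arrays did not overlap with those at 48 h. The 17 genes with at least 1 of the E2F words had a median of 0.36 and the 19 tested genes whose promoters held none had 0.24, with 16 and 14 above 0. The order was not the same in other intervals: with Antagomir-31 from 36 to 72 h the medians were 0.28 and 0.30, a description without a test.

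The exceptions at 72 h were named genes of the same machines. Rfc4 went from 9.31 and 9.28 to 8.73, 8.78 and 8.84, while the other 4 RFC subunits rose, and its change was -0.51 ± 0.061 (adjusted p = 7.82e-06), with -0.58 in its second probe set. Cdc45, the partner of GINS in the helicase, fell by 0.28 on the log2 scale (adjusted p = 0.000899), Pold1 by 0.31 (adjusted p = 0.00148) and Ccne1 by 0.21 (adjusted p = 0.00547). On the deposited values with no further scaling, Cdc45 was at 0.057, Ccne1 at 0.079 and Pold1 at -0.0081, and none of these passed. The second probe sets of Pold1, Ccne1 and Cdc45 were at 0.049, 0.0048 and 0.031, so these falls rest on 1 probe set each.

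**Figure D5:**
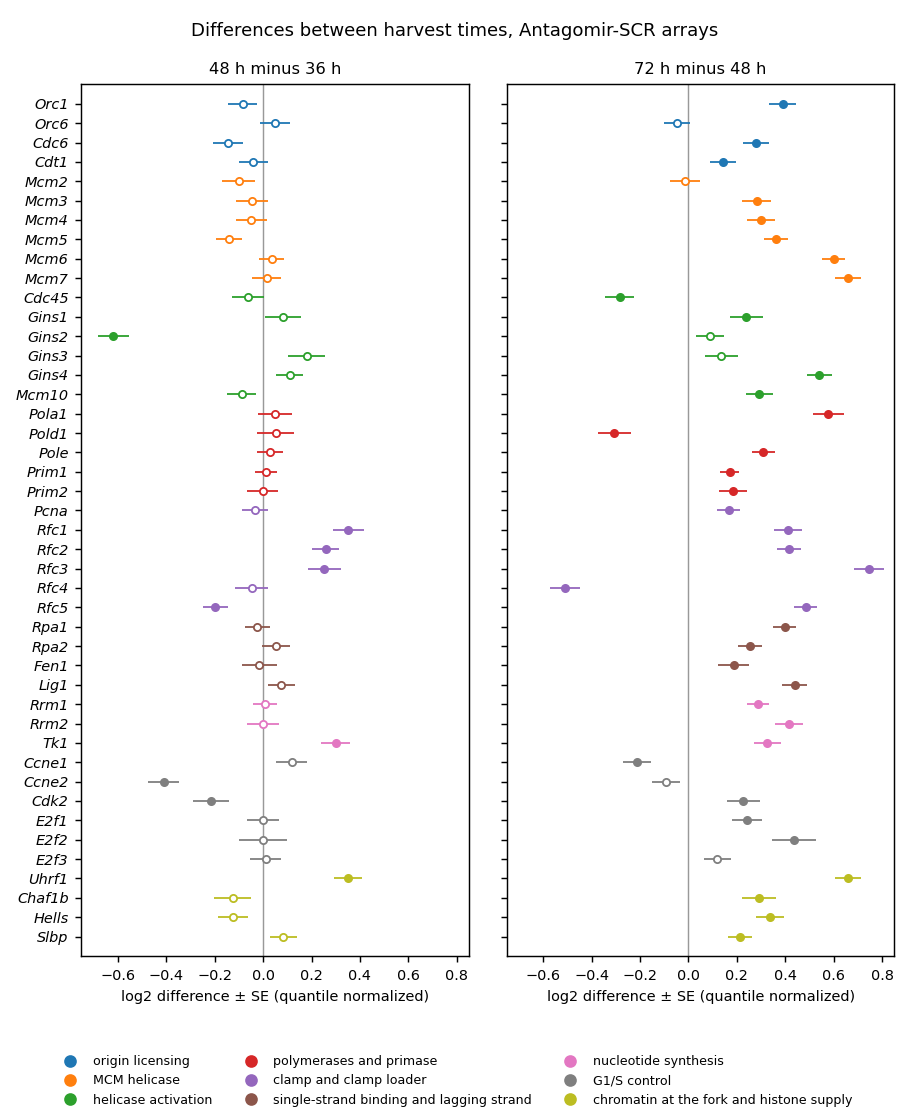
Log2 difference between harvest times with its standard error from limma, on quantile-normalized Antagomir-SCR arrays, for the 44 genes in order of their role (colours); filled points passed an adjusted p of 0.05. From 36 to 48 h 9 points are filled, on both sides of 0, and from 48 to 72 h 38 are, 34 of them right of 0, with Rfc4 lowest.

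The other lists moved with time as follows in the Antagomir-SCR arrays. From 36 to 48 h, where 15.5% of all genes rose and 11.4% fell, 6 of 54 further replication genes rose and 1 fell, 3 of 29 mitotic genes rose, among them Ccnb2 (cyclin B2, 0.28, adjusted p = 0.00146), and 4 of 9 G1 genes rose, among them Cdk6 (0.36, adjusted p = 0.00159) and Ccnd1 (0.43, adjusted p = 0.0138). None of the 13 inhibitors passed in that interval by limma, with 1 at an unadjusted p under 0.05. From 48 to 72 h, where 33.1% and 34.9% of all genes did, 29 further replication genes rose and 8 fell, 19 mitotic genes rose and 3 fell, 4 G1 genes rose and 2 fell, and 7 inhibitors rose and 5 fell. The maintenance methyltransferase Dnmt1, the partner of Uhrf1, rose by 1.07 (adjusted p = 2.28e-09), and Mtbp, which helps origins to fire, fell by 0.82 on the log2 scale (adjusted p = 5.55e-08). Of the inhibitors, Rb1 and Rbl2 rose by 1.36 and 1.51 and Btg2 fell by 2.61 on the log2 scale.

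Of the 45 genes, 36 have several probe sets, and for 29 at least 2 of these had a mean log2 of 6 or more. All such probe sets of a gene had the same sign for 21 of the 29 genes in the antagomir effect at 36 h, for 17 at 48 h and for 16 at 72 h. Over the 80 probe sets of that brightness, 66, 63 and 53 lay below 0 with Antagomir-31.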

How the data were processed

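RNA of Th1 rep cells was measured on 14 Affymetrix whole-genome mouse arrays. The deposited table holds linear intensities for 45101 probe sets, which the authors obtained by RMA; the submitters' processing notes name GCOS, RMA and affy, with versions not given in the sources used here. Samples were grouped by antagomir and harvest time as labelled. Arrays have no read depth, and their number limits the precision.

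The intensities as deposited were taken to log2, and symbols came from the platform annotation (34945 probe sets with 1 symbol, 932 with several, 9160 with none). Each gene took its probe set with the highest mean, and the brightest 60% of genes were tested in 1 limma fit (version 3.58.1, R 4.3.3) over 6 groups, with Benjamini-Hochberg adjustment and a threshold of 0.05. Antagomir contrasts used deposited values, and time contrasts used values after quantile normalization over all arrays. Self-written steps were tested on simulated data. Tables were handled in Python 3.11.15 with pandas 2.3.3.

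The members and lists were chosen with earlier results of these data known. Members that passed were named (up to 8 in each direction), or the 5 with the smallest p where fewer than 5 passed, and up to 4 genes of each other list. Alternatives changed the probe set, filter, scaling, prior variance, arrays and replicate block.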

Additional observations from a re-analysis of the deposited data

How the results depend on the processing

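The members below 0 with Antagomir-31 over the alternatives numbered 28 to 35 (36 h), 32 to 39 (48 h) and 27 to 33 (72 h). Of 1335 comparisons of a single gene with an alternative, 1264 kept direction and side of the threshold, and for the others the cause was not tested. Many of these genes lay far from the threshold in the main fit, so that their keeping its side says little. The 1 antagomir call, Ccne2 at 72 h, kept its side in 4 of 15 alternatives. At 72 h, 0 members passed with no filter on low values (more genes tested), with median centring, with the 72 h arrays alone and without each replicate (0 to 0), and 2 passed with a trend in the prior variance (Ccne2 and Mcm3), as did 1, Ccne2, for the effect at 72 h against 36 h. The adjusted p of Ccne2 at 72 h was 0.129, 0.0619 and 0.0835 under the first 3, and 0.0642 without probe sets open to cross-hybridization, where Mcm3 passed. All genes passing at 72 h numbered 120, and 72 without those probe sets, 14 with no filter, 283 with a mean log2 of at least 6, 422 with the trend, 11 with the 72 h arrays alone, 22 with the replicate block and 9 to 100 without 1 replicate of that time.

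Whether the replicate numbers pair the samples could not be settled. Deviations of same-numbered arrays correlated at 0.052 at 36 h, -0.164 at 48 h and -0.073 to 0.054 at 72 h. At 36 and 48 h, differently numbered arrays necessarily gave the same values with the sign reversed (-0.052 and 0.164). At 72 h they gave -0.07 to 0.056. The correlations thus show no clear shared deviation, but cannot tell whether same-numbered arrays share a culture. With the replicate block 0 members passed at 72 h (Ccne2, adjusted p = 0.126). The crossed pairing at 48 h, chosen after seeing the data, gave 0 members and 0 genes. Leaving out a replicate at 36 or 48 h leaves 1 array in a group, which is assumed to vary like the others.

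Without probe sets open to cross-hybridization, the members that fell with Antagomir-SCR numbered 2 (48 h against 36 h), 2 (72 h against 48 h) and 3 (72 h against 36 h), and with Antagomir-31 2 from 36 to 72 h. Gins2 was then at 0.097 and 0.11 with Antagomir-SCR at 48 and 72 h against 36 h and at 0.037 with Antagomir-31 at 48 h, Pold1 at 0.049 and 0.11 at 72 h against 48 and 36 h, Ccne1 at 0.0048 at 72 h against 48 h, and the difference of the Mcm5 effect at 72 h from that at 36 h at -0.075. On deposited values with no further scaling, 7, 1 and 3 fell with Antagomir-SCR over the same intervals and 1 and 2 with Antagomir-31 at 72 h against 48 and 36 h. There Cdc45 and Ccne1 were at 0.057 and 0.079 with Antagomir-SCR and Pold1 at 0.057 with Antagomir-31 at 72 h against 48 h. With median centring 2 fell with Antagomir-SCR and 7 rose with Antagomir-31 from 36 to 48 h. Leaving out a replicate gave 2 to 3 and 1 to 5 for these counts.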
